A study of Drosophila melanogaster with 2 samples.

Results

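Of the 3205 peaks of a tagged small Maf protein in Drosophila melanogaster embryos, 452 had a neighbouring peak within 1 kb, and these clustered peaks are described here beside the 2753 lone peaks. A peak counted as clustered when its summit, the position of the highest signal in its interval, lay less than 1000 bp from another summit of the same list on the same chromosome. Clustered peaks made up 14.1% of the list (exact binomial 95% interval 12.9 to 15.4%), and chains of such neighbours formed 218 clusters, 202 of 2 summits and 16 of 3. A peak is clustered only together with another, so the interval, which treats peaks as independent, is likely too narrow. The rule used summit positions and no signal values.

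The data came from chromatin immunoprecipitation followed by sequencing, in which DNA bound by a protein is recovered with an antibody and mapped to the genome. The flies were a transgenic line that stably expresses maf-S joined at its C-terminus to eGFP, a green fluorescent protein, and the antibody was directed against GFP. Whole embryos 0 to 24 hours old and of both sexes were pooled, so each sample mixes embryonic stages and cell types, and chromatin was sonicated to 200 to 800 bp. The 2 samples, biological replicates 2 and 3 by their labels, form 1 group and come from 1 donor line. The labels point to a possible control, which was not analysed here. Read depth is not given in the sources used here. Intervals and p-values below are computed over peaks, so they express counting error over peaks, not variation between embryo collections.

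Small Maf proteins are basic leucine zipper factors that bind DNA but carry no activation domain of their own. They act mainly as partners of larger basic leucine zipper proteins. In Drosophila the known partner is Cap-n-collar (Cnc), the relative of mammalian Nrf2, and the Cnc-Maf dimer binds antioxidant response elements upstream of detoxification genes. Keap1 is the adaptor that holds Cnc in check. Groups of neighbouring binding sites are common at promoters and enhancers, and a peak caller can also place several summits in 1 enriched stretch.

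The sequences that follow come from loci on which the results turn, read from the dm6 genome (RefSeq, Release 6) on the plus strand. The first spans both summits of a pair 199 bp apart, the smallest spacing in the list, at the divergent genes RpS27 and Nup37, with the Nup37 start site between the summits (chr3R:25247471-25247770), with the 2 summit bases in capitals.

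RpS27-Nup37 pair: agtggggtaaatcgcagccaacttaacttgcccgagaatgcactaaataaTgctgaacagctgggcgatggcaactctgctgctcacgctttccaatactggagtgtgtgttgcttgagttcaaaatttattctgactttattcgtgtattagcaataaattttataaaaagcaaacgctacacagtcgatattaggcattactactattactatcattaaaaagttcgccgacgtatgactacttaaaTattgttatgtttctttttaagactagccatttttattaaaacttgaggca

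The next spans both summits of a pair 201 bp apart at RpL34a and Trmt61, with a start site between the summits (chr3R:26059278-26059577). It is the only cluster in which the 201 bp window of every member held the DNA replication-related element (DRE), the promoter word TATCGATA, shown in capitals.

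RpL34a-Trmt61 pair: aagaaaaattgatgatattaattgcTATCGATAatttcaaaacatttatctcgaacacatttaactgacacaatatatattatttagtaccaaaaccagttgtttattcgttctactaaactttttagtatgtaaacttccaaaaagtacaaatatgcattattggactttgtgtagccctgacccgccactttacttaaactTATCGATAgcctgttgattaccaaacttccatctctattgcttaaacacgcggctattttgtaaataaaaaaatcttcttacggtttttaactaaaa

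Windows of 101 bp around both summits of the cluster of highest summed signal, at lncRNA:CR44619 on chromosome X, and around the strong and weak summits near cbt on chromosome arm 2L show the contrast within clusters. Their positions are chrX:12751379-12751479, chrX:12752297-12752397, chr2L:481041-481141 and chr2L:481851-481951, in the order printed. The capital is the summit base.

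lncRNA:CR44619 first summit: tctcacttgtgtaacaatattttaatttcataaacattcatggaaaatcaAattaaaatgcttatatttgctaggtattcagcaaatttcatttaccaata
lncRNA:CR44619 second summit: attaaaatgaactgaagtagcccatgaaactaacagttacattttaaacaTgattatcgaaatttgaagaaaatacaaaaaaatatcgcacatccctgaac
cbt strong summit: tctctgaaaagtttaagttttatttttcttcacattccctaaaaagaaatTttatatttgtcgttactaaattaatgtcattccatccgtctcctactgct
cbt weak summit: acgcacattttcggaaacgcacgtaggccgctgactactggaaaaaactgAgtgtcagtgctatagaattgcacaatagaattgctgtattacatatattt

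Windows of 201 bp around the LPCAT intron summit (chrX:9579201-9579401) and the stronger CG6565 summit (chr2L:13373860-13374060) hold the core of the Cnc-Maf site, searched as TGACNNNGC on both strands and capitalised. Both are strong members that hold the word, with signals of 493 and 476. At LPCAT the word lies at the edge of the window, at chrX:9579392-9579400, away from the summit at 9579301. At CG6565 it lies at chr2L:13373999-13374007, with the summit at 13373960. The 101 bp around the Keap1 promoter summit (chr3R:17079937-17080037) are shown because of that gene's role, and their capital is the summit base.

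LPCAT intron summit: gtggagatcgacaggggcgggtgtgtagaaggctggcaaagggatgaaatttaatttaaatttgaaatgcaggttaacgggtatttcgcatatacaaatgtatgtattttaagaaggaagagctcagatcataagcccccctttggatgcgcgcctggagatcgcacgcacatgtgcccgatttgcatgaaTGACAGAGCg
CG6565 strong summit: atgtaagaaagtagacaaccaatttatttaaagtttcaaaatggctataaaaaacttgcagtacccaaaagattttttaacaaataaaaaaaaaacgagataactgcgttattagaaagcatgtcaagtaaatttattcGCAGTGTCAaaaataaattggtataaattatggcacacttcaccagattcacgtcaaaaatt
Keap1 promoter summit: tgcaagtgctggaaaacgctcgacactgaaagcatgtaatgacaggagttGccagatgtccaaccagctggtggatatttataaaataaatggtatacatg

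The spacing between neighbouring clustered summits fell into 2 separate ranges. Of 234 neighbouring pairs, 103 lay 199 to 300 bp apart, with a median of 202 bp, and 131 lay 473 to 997 bp apart, with a median of 777 bp. No pair was spaced from 301 to 472 bp. Among the close pairs, 73 were 199 to 205 bp apart and 19 were at exactly 199 bp, the smallest spacing found in every list. Close and separated pairs are told apart below at 400 bp, a boundary set inside this empty range after the spacings had been seen. By this boundary 94 clusters held only close pairs, 115 only separated pairs and 9 had both.

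The intervals of the close pairs overlapped in 97 of 103 cases, and those of the separated pairs in 0 of 131. In 1 close pair, at CG6565, both summits were listed under the same interval. Before thresholding, the list made from the pooled replicates held 30000 peaks. Its spacings also had 2 ranges, but the stretch between them was thinly filled, not empty. From 250 to 399 bp it had 732 pairs, against 3 in the thresholded list. In bins of 20 bp the pooled list had 101 pairs from 300 bp, 3 from 380 bp and 52 from 460 bp. Its smallest spacing was again 199 bp, with 3038 pairs under 400 bp, 44 from 400 to under 450 bp and 6424 from 450 bp to under 1 kb. Replicate 2 alone had 2723 pairs under 400 bp and 46 from 400 to under 450 bp, and replicate 3 alone had 3144 and 44.

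**Figure D1:**
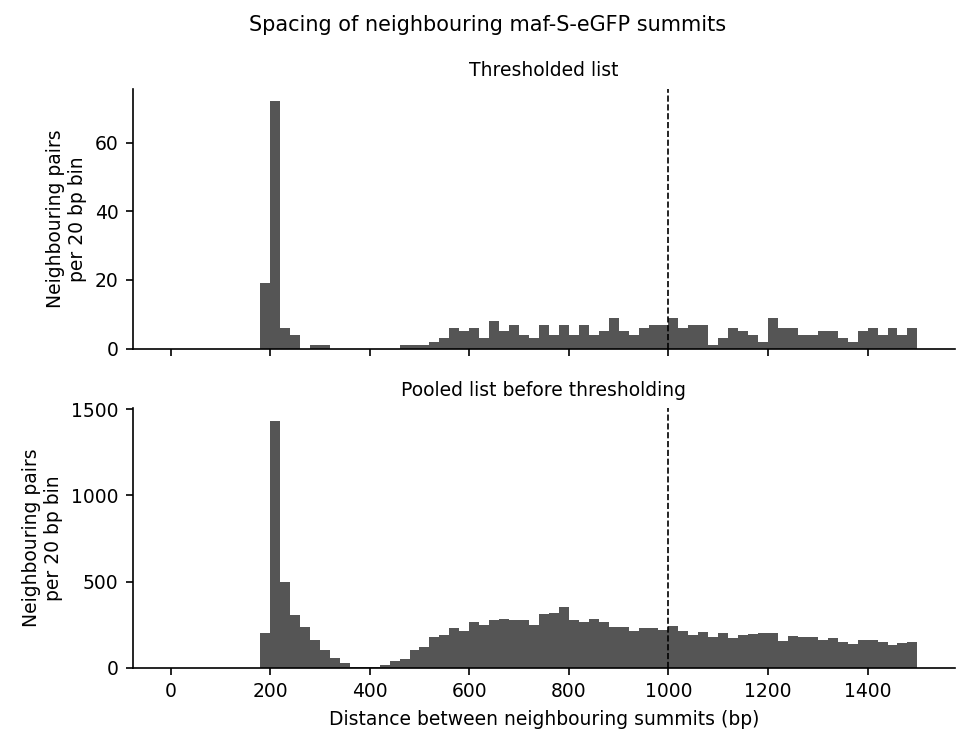
Number of neighbouring summit pairs (vertical axis) in 20 bp bins of their spacing (horizontal axis, bp) in the thresholded list (top) and the pooled list before thresholding (bottom). The dashed line marks 1000 bp. In the thresholded list 103 pairs stand at 199 to 300 bp and 131 at 473 to 997 bp, with none between.

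The members of the close pairs were ordered by position as well as by signal. In 96 of 103 close pairs (93.2%, exact 95% interval 86.5 to 97.2%) the summit of lower coordinate had the higher signal, against 70 of 131 separated pairs (53.4%, 44.5 to 62.2%). The lower coordinate was the stronger in 29 of 32 close pairs whose stronger summit was nearest to a plus-strand start site and in 67 of 71 nearest to a minus-strand one. At the 38 close pairs of divergent genes, the lower summit is the one at the minus-strand gene. There the stronger member itself sets the strand, so these counts are no separate check by orientation. Among pairs whose members matched separate summits in a replicate list, the lower coordinate was the stronger there in 76 of 78 close pairs in replicate 2 and 81 of 85 in replicate 3. The separated pairs stood at 64 of 126 and 66 of 131. In the unthresholded pooled list the share was 84.6% of 3038 pairs under 400 bp and 46.8% of 6468 pairs from 400 bp to under 1 kb. This order was noticed in the data and is given without a p-value. The cause was not tested.

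**Figure D2:**
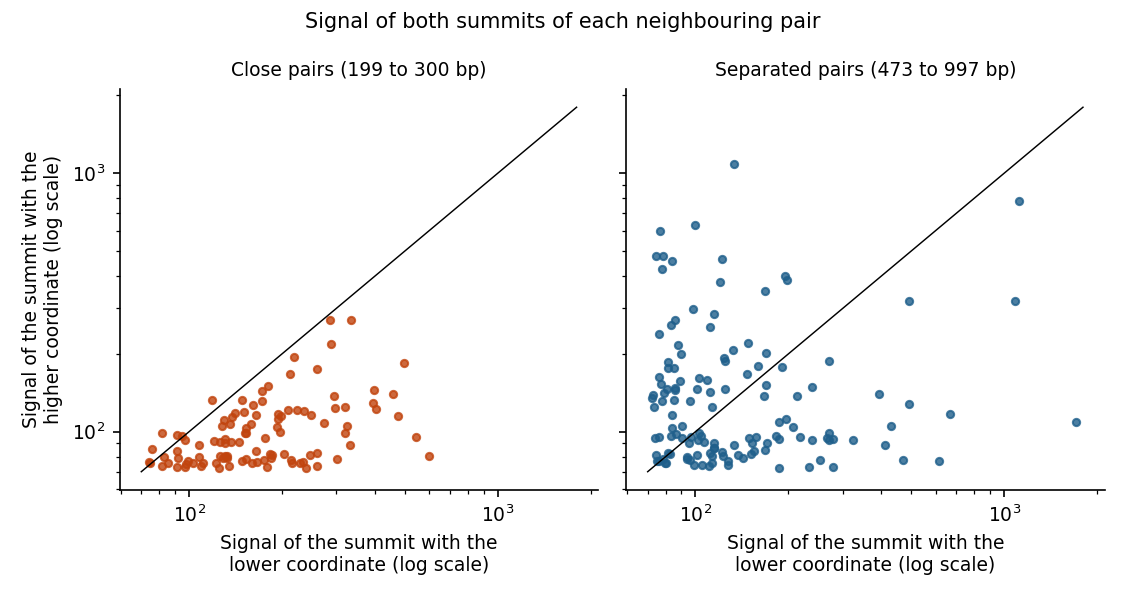
Signal of the summit with the lower coordinate (horizontal axis, log scale) against that of its neighbour with the higher coordinate (vertical axis, log scale) for close pairs (left) and separated pairs (right). The line marks equal signals. Of the close pairs 96 of 103 lie below the line, and of the separated pairs 70 of 131.

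Signal within clusters was uneven. Signal is the value that the authors' caller gave each peak, on a scale that the sources used here do not give, and it is compared only within a list. The stronger member of a pair had a median ratio to the weaker of 1.64, the ratio exceeded 2 in 77 of 234 pairs, and the largest was 15.7, near cbt. Median ratios were alike in the close pairs, at 1.61, and the separated pairs, at 1.69. The log2 signals of both summits had r = 0.466 across close pairs and r = 0.0045 across separated pairs, a difference that was not tested. No ratio between peaks that are not neighbours is given, so the unevenness is not shown to be particular to clusters.

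As a class, clustered peaks had a median signal of 115 (range 72.4 to 1703) and lone peaks 109 (72.3 to 1624). The 100 strongest of all peaks were 21 members and 79 lone peaks, where members made up 14.1% of the whole list. This count was not tested. Above the median of the list lay 53.5% of members and 49.4% of lone peaks. With the peak of lowest coordinate standing for each cluster, the odds ratio was 2.08 (Fisher's exact test, two-sided, adjusted p = 2.50e-06 over 5 features). That choice takes the stronger member of nearly every close pair. Over all members the odds ratio was 1.18 (exact test, adjusted p = 0.131), and with the highest coordinate in its place it was 0.68, below 1. The direction of this test thus depended on which member stood for a close pair.

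Most clustered summits were listed in both replicates, and most of the exceptions had a close neighbour. Both replicates entered the thresholded list, so the choice of peaks itself favoured a match, for members and for lone peaks. Within 150 bp, a summit was listed anywhere among 30000 peaks for 429 of 452 members in replicate 2 and 443 in replicate 3. Of the 23 members with no such summit in replicate 2, 18 had a neighbour under 400 bp, as did all 9 in replicate 3. Among lone peaks 10 and 4 of 2753 had none. Restricted to the 3205 strongest peaks of each replicate, 69.5% of members and 74.0% of lone peaks were matched in both, beside 73.4% of all peaks. By clusters the odds ratio was 1.12 (Fisher's exact test, two-sided, adjusted p = 0.651 over 5 features). The direction turned with the choice of peaks. The odds ratio was 0.80 over all members, 0.61 with the highest coordinate standing for each cluster (Fisher's exact test, adjusted p = 0.00414) and 0.12 in the stronger 1602 peaks (adjusted p = 0.000619). With matching within 300 bp it was 1.87 (exact test, adjusted p = 0.00135). At that distance a member of a close pair can match the summit of its neighbour, and a lone peak has no such neighbour in the list. The value of 1.87 is therefore no sign of better matching.

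As 2 separate summits of a single replicate, 78 of 103 close pairs (75.7%) and 126 of 131 separated pairs (96.2%) were listed in replicate 2, and 85 close pairs (82.5%) and all 131 separated pairs in replicate 3. With matching within 150 bp, both members of a close pair can fall to the same replicate summit, which members of a separated pair cannot, so no test of this difference is given. The median change in spacing from the thresholded list was 4 bp in replicate 2 and 2 bp in replicate 3 for close pairs, and 19 and 21 bp for separated pairs. Close spacings gather at the smallest spacing of 199 bp that every list has, so the smaller change is no measure of stability.

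**Figure D3:**
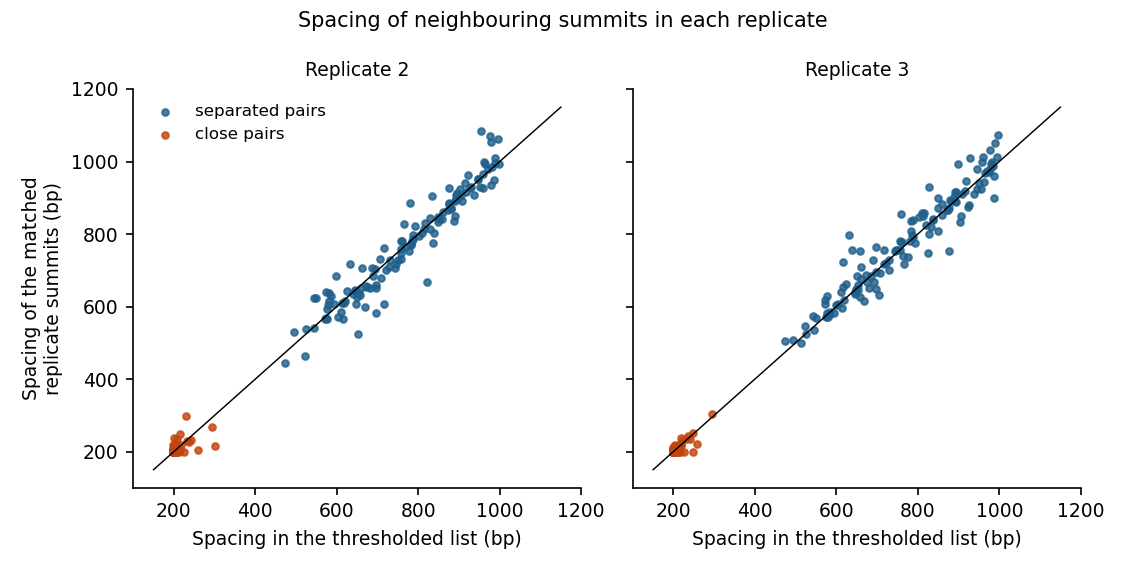
Spacing of the matched summits in replicate 2 (left) and replicate 3 (right), in bp, against the spacing in the thresholded list, in bp, for pairs matched to separate summits. Points on the line keep their spacing. Close pairs (median change 4 and 2 bp) lie nearer the line than separated pairs (19 and 21 bp).

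The order of strength within clusters was shared by the replicates. In 138 of 159 clusters of 2 whose members had separate summits in both replicate lists (86.8%, exact 95% interval 80.5 to 91.6%), the same member was the stronger in replicate 2 and in replicate 3. Counted over pairs, the order was the same in 60 of 62 close pairs and 103 of 126 separated pairs. The count for close pairs largely restates that the lower coordinate was the stronger in 97.4% and 95.3% of those matched in replicates 2 and 3. Where the ratio in the thresholded list was 1.5 or more, the order was the same in 119 of 121 pairs. Both replicates enter that ratio, so choosing by it favours pairs in which they share the order. Across members the log2 signals of the replicates had r = 0.78 (420 members listed in both) and across lone peaks r = 0.79 (2739 peaks). Both replicates also entered the list from which the members were taken.

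Clusters lay mainly at promoters and in introns. A summit within 500 bp of an annotated start site was called a promoter summit, and the annotation was Ensembl release 115. Every member was at a promoter in 108 of 218 clusters, in introns in 51, and a promoter and an intron were combined in 38. Another 18 clusters had an intergenic member, and in 6 of them all members were intergenic. Promoters held 60.8% of members, 58.6% of lone peaks and 58.9% of all peaks, and the odds ratio by clusters was 1.19 (Fisher's exact test, two-sided, adjusted p = 0.303 over 6 features). Start sites on both strands within 500 bp were found for 25.7% of members, 22.7% of lone peaks and 23.1% of all peaks (odds ratio 1.30, exact test, adjusted p = 0.176, and 0.90 in the list of replicate 3 alone). Start sites of 2 or more genes lay within 1 kb of 39.6% of members, 32.1% of lone peaks and 33.1% of all peaks. That odds ratio was 1.38 (95% interval 1.03 to 1.85) with an adjusted p of 0.0880 in Fisher's exact test, and 1.39 with an adjusted p of 0.00627 when all members entered. Peaks of a cluster share their surroundings, so the latter counts the same sites repeatedly.

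Intergenic positions were less frequent among clustered peaks, a call that 7 of 11 alternatives did not keep. They held 5.53% of members, 10.2% of lone peaks and 9.58% of all peaks, with an odds ratio of 0.42 by clusters (95% interval 0.197 to 0.803, Fisher's exact test, two-sided, adjusted p = 0.0268 over 6 features). The odds ratio stayed below 1 in all 11. In Fisher's exact test the adjusted p was 0.129 in the list of replicate 2 alone, 0.134 with the highest coordinate standing for each cluster, 0.369 for neighbours under 2000 bp, 0.334 in the stronger 1602 peaks, 0.0517 with promoters of 250 bp, and 0.0664 and 0.0984 in close and separated clusters alone. Introns held 32.5% of members, 29.1% of lone peaks and 29.5% of all peaks (odds ratio 1.08, exact test, adjusted p = 0.589). Chromosome X held 21.7% of members, 17.4% of lone peaks and 18% of all peaks (odds ratio 1.31, exact test, adjusted p = 0.176). Among chromosome arms the share of peaks that were clustered ran from 10.3% on 3L (63 of 611) to 17.0% on X (98 of 576), with 13.6% on 2L, 16.7% on 2R and 13.3% on 3R. Chromosome 4 had 2 clustered peaks of 13.

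Close and separated clusters had different surroundings. In close clusters 152 of 188 summits (80.9%) were at promoters, against 111 of 237 (46.8%) in separated ones. With 1 peak per cluster the odds ratio was 4.27 (95% interval 2.22 to 8.50, Fisher's exact test, two-sided, adjusted p = 6.84e-06 over 7 features, 94 and 115 clusters). Start sites on both strands accompanied 47.9% of close and 10.1% of separated summits (odds ratio 6.29, exact test, adjusted p = 2.00e-07), and start sites of 2 or more genes 56.4% and 27.4% (odds ratio 3.19, adjusted p = 0.000119). Introns held 14.9% and 44.7% (odds ratio 0.22, exact test, adjusted p = 1.16e-05), and chromosome X 11.7% and 30.8% (odds ratio 0.30, adjusted p = 0.00153). The GC content of the 201 bp window exceeded the median of all peaks in 34.6% of close and 49.8% of separated summits. With the peak of lowest coordinate per cluster the shares were 28.7% and 51.3% (odds ratio 0.38, exact test, adjusted p = 0.00153). For most close clusters that peak is the stronger member, so the odds ratio is not that of all summits. Intergenic summits were few in both, 3.19% and 7.17% (exact test, adjusted p = 1).

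Against lone peaks, these classes lay on opposite sides. For promoter position the odds ratio was 2.79 in close clusters (Fisher's exact test, adjusted p = 4.98e-05) and 0.65 in separated clusters (adjusted p = 0.0392). For start sites on both strands it was 3.00 (Fisher's exact test, adjusted p = 3.95e-06) and 0.47 (adjusted p = 0.0161). A definition of neighbours as under 500 bp, which holds few separated pairs, gave 2.35 for promoters (Fisher's exact test, adjusted p = 0.000233).

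**Figure D4:**
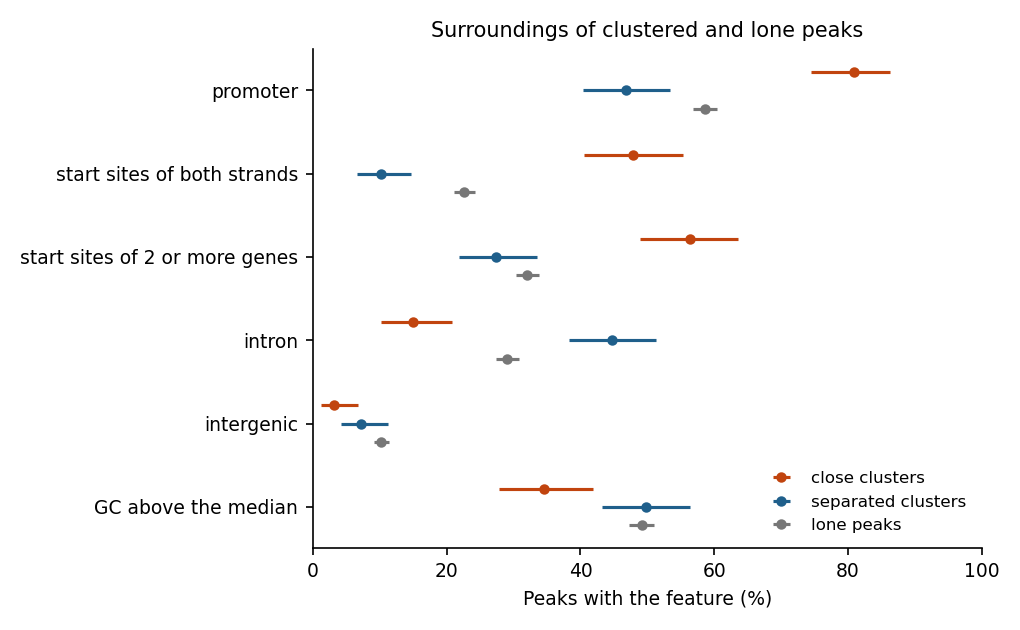
Percentage of peaks with each feature (horizontal axis) among members of close clusters, members of separated clusters and lone peaks, with exact binomial 95% intervals over peaks. Close clusters stand at 80.9% for promoters and 47.9% for start sites on both strands, above lone peaks at 58.6% and 22.7%, and separated clusters stand below them at 46.8% and 10.1%.

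Divergent gene pairs were frequent at close pairs. Both summits of a close pair were at promoters in 76 of 103 cases and both of a separated pair in 38 of 131, a difference that a short spacing favours by geometry. In 38 close pairs the nearest start sites belonged to divergent genes, and in 64 both summits had the same nearest gene. The separated pairs had 18 divergent, 9 tandem and 2 convergent neighbours and 102 at the same gene. Among the 76 close pairs with both summits at promoters, the stronger summit lay at a median of 94.5 bp upstream of its start site and upstream in 64. The weaker lay farther upstream of that same start site than the stronger in 57. Of the 76 pairs, 37 were at divergent genes, where the weaker lies there by geometry, whichever member is stronger. The other 39 had the same nearest gene, so the count of 57 mixes a fixed outcome with an open one and shows no arrangement. The stronger summit was no more often the nearer to a start site. In clusters of 2 it was the nearer in 94 of 201 with unequal distances (46.8%, exact sign test, two-sided, p = 0.397).

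The strongest clusters are given with the signal in the thresholded list and then the signals of the matched peaks in replicates 2 and 3. These lists are not on a common scale. Both replicates entered the signal by which these clusters were chosen. A shared order or strength in the replicates is favoured by that choice and is no separate check. At lncRNA:CR44619, a long non-coding RNA gene on X, the summits at 12751429 and 12752347 had signals of 1121 and 779 and were 918 bp apart. They stood at 484 and 334 in replicate 2 and at 644 and 446 in replicate 3, so both were strong in each replicate. They rank 10 and 25 of all peaks and flank the start site of the RNA.

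The strongest peak of the whole list had a weak neighbour. It lay on 2L at 481091, in an intron of ush, 1403 bp upstream of cbt, which encodes a zinc finger transcription factor. Its signal was 1703, with 695 in replicate 2 and 1011 in replicate 3. Its neighbour 810 bp away had 109, 45.7 and 59.2. The same member was by far the stronger in both replicates, which the choice of this cluster by its summed signal and ratio favours.

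The 3-summit clusters of highest summed signal lay at ph-p and NFAT. At ph-p, which encodes a Polycomb group subunit, the middle summit had 1087 and its neighbours 133 and 319. In replicate 2 the summits of ph-p had 64.1, 457 and 164, and in replicate 3 65.8, 635 and 175, in order of coordinate. All of them lay within 500 bp of a start site of the gene, spread over 1317 bp. In the NFAT gene, which encodes a Rel family transcription factor, intron summits had 491, 321 and 98.5. Their values were 213, 107 and 50.6 in replicate 2 and 276, 213 and 51.3 in replicate 3, so the order was kept. The last NFAT summits were 199 bp apart, and the first lay 721 bp away from them.

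Trl encodes the GAGA factor, a DNA-binding regulator of chromatin. Its intron on 3L held summits of 666 and 117 spaced 875 bp, with 287 and 50.4 in replicate 2 and 382 and 68.3 in replicate 3. The Adf1 transcription factor gene on 2R had an intron summit of 598, flanked by 76.5 at the Dpit47 promoter 995 bp away and by 80.3 at 203 bp. In replicate 2 these were 251, 24.9 and 16.7, and in replicate 3 349, 59.3 and 42.7. In each of these clusters a single summit exceeded its neighbours in both replicates.

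At by and at nrv1 the first 2 summits were nearer to each other in signal than to the third. At by, which encodes the tensin of focal adhesions, summits of 286, 271 and 187 lay on 3R. The first had 143 in replicate 2 and no summit within 150 bp in replicate 3. The second stood at 130 and 147, and the third at 65.9 and 120. At nrv1, a sodium pump subunit gene on 2L, summits had 335, 270 and 98.6. They had 128, 110 and 27.2 in replicate 2 and 210, 160 and 71.1 in replicate 3. The first 2 summits at each gene were close, 200 and 202 bp apart.

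Large contrasts completed the 10 clusters of highest summed signal. The MFS10 promoter summits on X had 99.6 and 632, with 40.6 and 278 in replicate 2 and 60.2 and 353 in replicate 3. At tank and CG12194 on 2L, promoters of different genes held 615 and 76.9, with 263 and 44.8 in replicate 2 and 356 and 34.7 in replicate 3. Here the higher coordinate was the stronger in MFS10 and the lower in tank, and both were separated pairs.

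**Figure D5:**
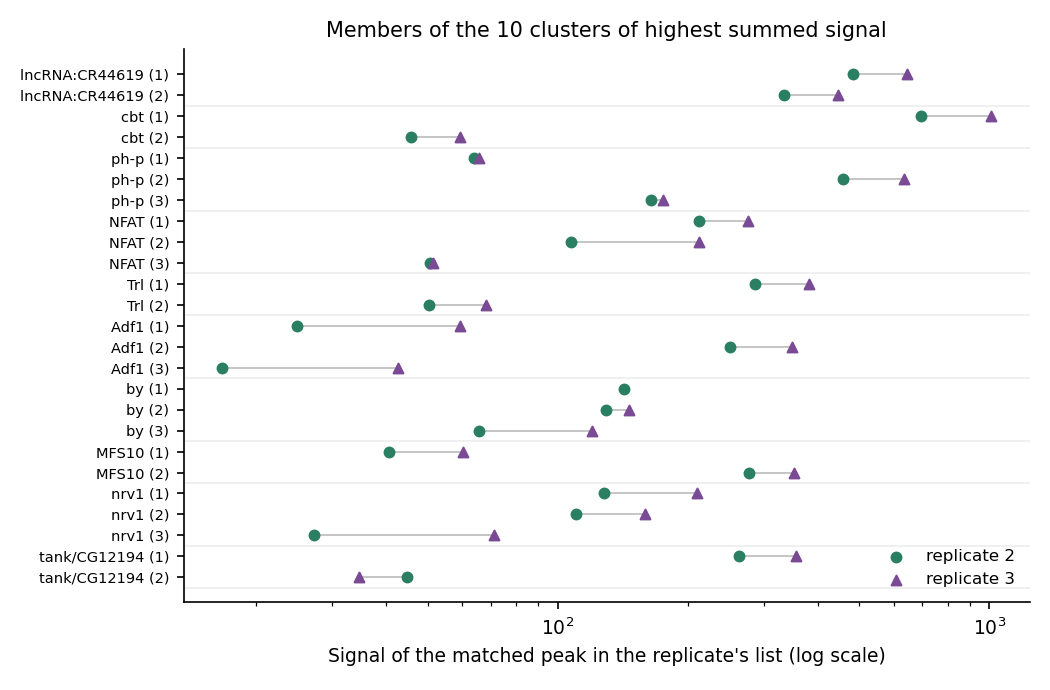
Signal (horizontal axis, log scale) of the matched peak in replicate 2 (circles) and replicate 3 (triangles) for each member, numbered by coordinate, of the 10 clusters of highest summed signal. Replicate 3 lies to the right of replicate 2 for every member with both values except the CG12194 summit, and the strongest member of a cluster is the same in both where its summits have a match. The first by summit has no value in replicate 3. Both replicates entered the signal by which the clusters were ranked.

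Close pairs at divergent genes are represented by RpS27 and Nup37, whose sequence is printed above. RpS27 encodes a ribosomal protein of the small subunit and Nup37 a nuclear pore component. The summit 7 bp upstream of RpS27 had 542, with 256 in replicate 2 and 286 in replicate 3. The summit 62 bp inside Nup37 had 95.4, with 29.4 and 49.4. Fur1, a furin protease gene, and Vps33B, a vesicle fusion gene, shared a pair of 499 and 184 spaced 212 bp. The Fur1 summit had 216 and 283 in the replicates, and the Vps33B summit had 65.5 in replicate 2 and no match in replicate 3. In both pairs the summit of lower coordinate, at the minus-strand gene, was the stronger.

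Other pairs at the smallest spacing, 199 bp, lay at genes of varied function. At spi, which encodes a ligand of the EGF receptor, the signals were 393 and 129, with 168 and 25.04 in replicate 2 and 228 and 121 in replicate 3. At Smg5, a nonsense-mediated decay gene, they were 325 and 105, with 123 and 43.2 and then 200 and 59.6. At aph-1, which encodes a gamma-secretase subunit, they were 236 and 121, with 84.8 and 36.7 and then 154 and 75.5. At APP-BP1, which encodes a subunit of the Nedd8-activating enzyme, they were 296 and 123, and the weaker had no match in replicate 2. In each the lower coordinate was the stronger, on either strand.

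Close to the 1000 bp limit the signals were of both strengths. Just inside it lay the pairs at Trpm (997 bp apart, 93.6 and 80.1), tara (989 bp, 102 and 92.6), Fkbp14 (988 bp, 78.7 and 477), FBtr0445485_df_nrg within Tis11 (988 bp, 101 and 146) and P5CDh1 (982 bp, 279 and 73.0). Just outside it lay the pairs at msn (1001 bp, 105 and 115), if (1001 bp, 94.4 and 112), Stt3A and bves (1007 bp, 150 and 489), Rab1 and Idi (1008 bp, 84.4 and 79.4) and Ptpmeg (1011 bp, 123 and 79.5).

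Keap1, the inhibitor of Cnc, had a clustered promoter summit. It lay 42 bp upstream of the start site and had 148, with 56.3 in replicate 2 and 88.4 in replicate 3. Its neighbours were a close pair in an intron of kuk, a nuclear lamina gene, with 219 and 195. The first of these had 74.1 and 148, and the second 66.8 and 73.8. The ratio between the highest and lowest was 1.48. Other clusters of 3 lay at l(2)k01209, bin3, hts and CalpA, CG10543, crp, sky and CG43739, mor and Hel89B, lncRNA:CR45541 and Hex-A, CG42780 and CG7560. Their signals ran from 76.2, at crp, to 319, at l(2)k01209. The CG7560 cluster was intergenic, 6758 to 8179 bp upstream of the start site.

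No sequence feature passed the threshold of 0.05 with 1 peak per cluster, though GC content did under other settings given below. Words were searched on both strands in the 201 bp around each summit, 13 of them, with GC content as the last of 14 features. The DRE was in 4.42% of members, 5.96% of lone peaks and 5.74% of all peaks (odds ratio 0.84, Fisher's exact test by clusters, adjusted p = 0.823). In the list of replicate 3 alone that odds ratio was 0.30 (95% interval 0.079 to 0.78, adjusted p = 0.122 by the exact test). It occurred in 19 clusters, and all 20 members with it were promoter summits. Motif 1, the core promoter word GGTCACAC, was in 2.21% of members, 3.81% of lone peaks and 3.59% of all peaks (odds ratio 0.96, exact test, adjusted p = 1), in 10 clusters and in every member of none. The Cnc-Maf word was in 5.97% of members, 5.70% of lone peaks and 5.74% of all peaks, and 25 clusters had it, 2 of them in every member. The dinucleotide repeat CACACACA was in 5.31% of members, 3.16% of lone peaks and 3.46% of all peaks. GC content above the median was found in 44.0% of members and 49.2% of lone peaks (odds ratio 0.73, exact test, adjusted p = 0.405). It passed with neighbours under 500 bp (0.47, adjusted p = 0.00450 in the exact test) and with 200 bp on each side of the summit (0.61, adjusted p = 0.00766). Both settings took the peak of lowest coordinate of each cluster. With neighbours under 1000 bp the GC odds ratio was 0.81 over all members and 0.84 with the highest coordinate (exact test, adjusted p = 0.256 and 0.595). A word found in a window is a description and does not show binding.

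The members with the Cnc-Maf word were of mixed strength. At LPCAT, a phospholipid acyltransferase gene, the intron summit with the word had 493, with 208 in replicate 2 and 278 in replicate 3. Its promoter neighbour without the word had 128, 56.2 and 74.7. At CG6565 the summit with the word had 476, with 192 and 284, and its neighbour without it 115, with 31.4 and 121. At Fem-1 the word was in the weaker member, with 74.6 beside 478. At hts, an adducin gene, it was in the weakest of 3, with 77.9. The DRE pair at RpL34a and Trmt61 had 153 and 78.4. In replicate 2 the RpL34a summit had 81.2 and the Trmt61 summit no match, and in replicate 3 both fell to the same summit of 81.8, so the pair was separate in neither replicate.

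Gene classes near clustered peaks were counted within 1 kb, without a test. Cytosolic ribosomal protein genes lay near 14 of 452 members (3.10%) and 73 of 3205 peaks (2.28%). They were RpLP2, RpL18, RpS27, RpL34a, RpL32, RpS6 and RpS28b, in 7 clusters. At RpL32 the signals were 274 and 108, and at RpS28b 132 and 207. Transfer RNA genes lay near 0 of 452 members and near 17 of all peaks (0.530%). The count of 0 allows a share of up to 0.664% if members are taken as independent. Members of a cluster share their surroundings, so this bound is likely too low. MicroRNA genes lay near 5 members (1.11%) in 3 clusters, at mir-8, mir-282 and mir-9377, and near 19 of all peaks (0.593%). Small nucleolar or nuclear RNA genes, among them snRNA:7SKa, lay near 4 members (0.885%) in 2 clusters and near 36 of all peaks (1.12%). Basic leucine zipper genes lay near 3 members (0.664%) in 2 clusters, at Irbp18 and CrebB, and near 12 of all peaks (0.374%).

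Below the threshold, clustered peaks had fewer further neighbours. A summit of the pooled list that was not in the thresholded list lay within 1 kb of 43.6% of members, 55.0% of lone peaks and 53.4% of all peaks. A clustered neighbour takes up part of that window, so no test is given.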

How the data were processed

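The authors deposited peak lists of the 2 replicates, of the pooled replicates and of the peaks that passed an optimal irreproducible discovery rate threshold, on dm6 and dm3, per the labels. Each row gives an interval, a summit offset (other) and a signal value per peak, as deposited by the authors. Aligner, peak caller, threshold and depth are not given in the sources used here. Results rest on the thresholded dm6 list, with the pooled and replicate lists for matching within 150 bp. Coordinates are 1-based.

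Features came from Ensembl release 115 and the Release 6 genome. With the peak of lowest coordinate per cluster, features were compared with lone peaks by two-sided Fisher's exact tests, Benjamini-Hochberg adjusted within families of 6, 5 and 14 features (scipy 1.17.1, pandas 2.3.3). The tests were checked on simulated data. P-values measure spread over sites, not between samples. Named genes had start sites nearest to: the 10 clusters of highest summed signal, clusters of 3, the smallest spacings, those around 1000 bp, clusters with every member holding the DRE or motif 1, promoters of different genes, the Cnc-Maf word and the largest ratios. The RpL32, RpS28b, Keap1 and gene-class members were named from the gene classes or for their role. Members and lists were chosen with earlier results of these data known. A class of transcription factor genes could not be defined by symbol and was not analysed here. The results of 1 pair of divergent promoters are not reported here.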

Additional observations from a re-analysis of the deposited data

How the results depend on the processing

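The number of clustered peaks, 452, was 210 for neighbours under 500 bp, 804 under 2000 bp and 123 in the stronger 1602 peaks. Boundaries chosen after the spacings were seen gave 206 under 400 bp and 258 from 400 to under 1000 bp. In the 3205 strongest peaks of a single replicate it was 441 to 513.

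Odds ratios below compare clustered with lone peaks, and the cause of each change was not tested. Under 500 bp they became 2.35 for promoters, 2.60 for start sites on both strands, 2.28 for start sites of 2 or more genes, 0.47 for GC content and 1.32 for motif 1. Under 2000 bp they were 0.89 for promoters, 0.92 for both strands and 0.74 for intergenic position. In the stronger 1602 peaks they were 0.18 for intergenic position, 0.12 for a match in both replicates, 1.24 for the DRE and 1.07 for motif 1. With all members they were 1.39 for 2 or more genes, 1.18 for signal and 0.80 for a match in both replicates.

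Settings added after seeing the data were as follows. Separated clusters alone gave 0.65 for promoters, 0.47 for both strands, 0.82 for 2 or more genes, 1.29 for signal, 0.996 for a match in both replicates, 1.09 for GC content and 0.48 for intergenic position. Close clusters alone gave 2.79, 3.00 and 2.62 for the first 3 of these, 1.42 for motif 1, 0.42 for GC content and 0.39 for intergenic position. The highest coordinate of each cluster gave 0.68 for signal, 0.61 for a match in both replicates and 0.56 for intergenic position.

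Other distances gave 1.48 for 2 or more genes within 2000 bp of a start site, 0.52 for intergenic position with promoters of 250 bp, 1.04 for the DRE and 0.61 for GC content in wider windows, and 0.92 and 1.87 for a match within 50 and 300 bp. A match within 300 bp can fall to the summit of a close neighbour. The share of clusters with the same member stronger in both replicates was 91.7% with a match within 50 bp.

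The lists of single replicates gave 0.90 to 1.07 for both strands, 0.40 to 0.52 for intergenic position, 1.17 to 1.31 for promoters, 1.09 to 1.22 for 2 or more genes, 1.84 to 2.23 for signal and 0.30 to 0.75 for the DRE. Of 113 alternatives, 68 kept direction and side of the threshold or moved little, 18 reversed direction, 12 passed the threshold where the reported value did not, 9 lost it and 6 moved by more than the spread. No paired analysis was possible because the series has 1 group. Read depth is unknown, so peaks near the threshold cannot be weighed by it.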

Other observations

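The thresholded list on dm3, a separate assembly, held 3508 peaks and gave the same division of spacings. It had 553 clustered peaks and 286 neighbouring pairs, of which 115 were under 400 bp and 0 from 400 to under 450 bp. The lower coordinate was the stronger in 108 of 115 close pairs (93.9%) and in 87 of 171 separated pairs (50.9%). Both lists come from the same 2 samples.

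Intervals of 390 bp, the full width, were held by 81.0% of members and 85.6% of lone peaks.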
